A study of Homo sapiens with 9 samples.

Results

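The endoplasmic reticulum (ER) unfolded protein response was examined through 10 genes, ATF6, ERN1, EIF2AK3, XBP1, HERPUD1, SEL1L, PDIA4, CALR, SDF2L1 and MANF, in lung cancer cells depleted of FIBP. The genes were chosen by name from 60966 genes in the transcript tables, and they hold 69 of the 244443 transcripts listed. H1299 cells, a long-established line of human non-small cell lung cancer, were transfected with a scrambled siRNA (Scramble) or with 1 of 2 siRNAs against FIBP, which encodes an intracellular protein that binds acidic fibroblast growth factor. These groups are named Scramble, Si-FIBP#1 and Si-FIBP#2 and hold 3 samples each. By the study's siRNA methods the cells were harvested after 48 h. All groups carry a transfected siRNA, no untransfected group was analysed here, and the labels name no agent that disturbs protein folding. The samples are described as independent, without a statement that they came from separate cultures, so p-values measure the spread between these samples, which may be technical.

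The unfolded protein response keeps the folding capacity of the ER matched to the load of secreted and membrane proteins. ATF6, IRE1 (the product of ERN1) and PERK (the product of EIF2AK3) sense misfolded proteins in the ER lumen. Activated ATF6 is cleaved in the Golgi into a transcription factor. IRE1 removes a short stretch from the XBP1 mRNA so that it encodes another transcription factor. PERK phosphorylates eIF2α, which lowers protein synthesis and favours translation of ATF4. The outputs include ER chaperones and foldases, and the machinery of ER-associated degradation (ERAD), which returns misfolded proteins to the cytosol for the proteasome. Cleavage, phosphorylation and translation are not seen in mRNA levels, so the values below describe transcripts only.

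The values are FPKM, fragments per kilobase of transcript scaled to the depth of the library, summed over the transcripts of a gene. The samples summed to 781058 to 818104 FPKM, 13894 to 14715 genes reached 1 FPKM, and the depth estimated from the steps between low values was 20650000 to 24650000 fragments. FIBP was at 88.38, 79.49 and 77.74 FPKM in Scramble, at 7.49, 7.77 and 4.30 FPKM in Si-FIBP#1 and at 7.13, 5.92 and 8.21 FPKM in Si-FIBP#2. It fell by 3.50 and 3.36 on the log2(FPKM + 1) scale, with limma adjusted p-values of 9.4e-07 and 1.42e-06. The change was -2.06 and -1.94 in a length-weighted gene value and -4.21 and -4.08 with annotated transcripts only. Of the epithelial and mesenchymal markers, KRT8, KRT18, KRT7, VIM, CDH2 and FN1 were above 4 FPKM in all samples, while CDH1 was at 0 and KRT19, EPCAM and the lung adenocarcinoma markers NKX2-1, NAPSA and SFTPB stayed below 1 FPKM. The leukocyte and endothelial markers PTPRC, PECAM1 and VWF were also below 1 FPKM, and CD68 was at 31.0 to 67.0 FPKM. Several markers moved with the siRNAs. Of the 6 epithelial markers, 3 were tested and 2 fell with each siRNA, KRT8 by 0.53 and 0.49 and KRT18 by 1.19 and 1.45 on the log2 scale, and their sum was 585 to 596 FPKM in Scramble, 272 to 309 in Si-FIBP#1 and 215 to 290 in Si-FIBP#2. Of the 3 mesenchymal markers, VIM fell by 0.49 and 0.72, CDH2 rose by 0.35 and 0.43, and FN1 fell by 0.49 with Si-FIBP#2, a call lost in 4 of 18 alternative settings (without Scramble replicate 2 or Si-FIBP#2 replicate 1 or 3, and with no filter). Their sum was 3174 to 3394 FPKM in Scramble, 2195 to 2488 in Si-FIBP#1 and 1620 to 2246 in Si-FIBP#2. Of the 4 leukocyte and endothelial markers only CD68 was tested, and it rose by 0.27 and 0.90, the former lost in 9 of 18 alternatives, among them leaving out any Scramble or Si-FIBP#1 sample. The part of these changes in the results below was not tested. In bulk RNA, fewer cells expressing a gene and less RNA of it per cell cannot be told apart.

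In Scramble cells, the 10 genes spanned levels from 3.14 FPKM for ERN1 to 299 FPKM for CALR. The luminal proteins stood highest, with CALR followed by MANF at 62.7, PDIA4 at 60.1 and SDF2L1 at 43.7 FPKM on average. XBP1 at 21.9, SEL1L at 19.0 and HERPUD1 at 17.7 FPKM came next. The sensors stood lowest, with ATF6 at 6.36, EIF2AK3 at 4.04 and ERN1 at 3.14 FPKM. The ranges of neighbours in this order did not overlap over the 3 Scramble samples.

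ATF6 rose with both siRNAs, and it was the member with the largest change. PDIA4 also passed the test with both siRNAs, XBP1 fell with Si-FIBP#1, and MANF fell with Si-FIBP#2. The other 6 members did not pass with either siRNA. With each siRNA, 3 of 10 members had an adjusted p below 0.05 by limma over all genes, 2 of them higher and 1 lower. Among the 14985 genes tested, 47.7% passed with Si-FIBP#1 and 48.8% with Si-FIBP#2, so the share of members was below the background. None of the 10 also changed over 2-fold on the log2(FPKM + 1) scale, where 5.66% and 5.05% of all genes did. The study's threshold was also 2-fold, but this scale understates changes of low genes, so these shares may be lower than at that threshold. At an unadjusted p below 0.05, 4 members passed with Si-FIBP#1 and 3 after Si-FIBP#2, beside 54.5% and 55.2% of all genes, and 0 of these members changed over 2-fold. The median log2 fold change of the members was 0.10 with Si-FIBP#1 and -0.032 for Si-FIBP#2, beside 0.073 and 0.11 over all genes tested. Both comparisons use the same Scramble samples.

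**Figure D1:**
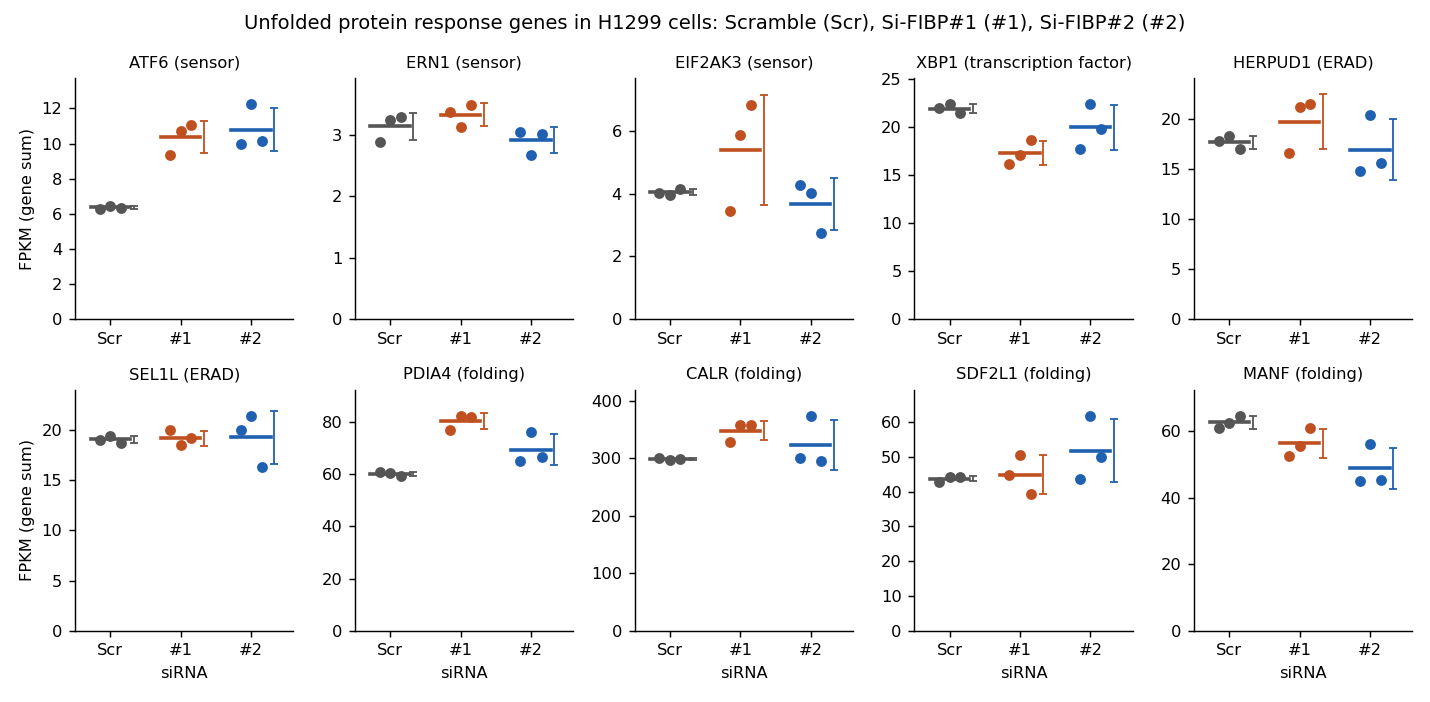
FPKM of each of the 10 genes (y axis, from 0) in the 9 samples, with Scramble (Scr), Si-FIBP#1 (#1) and Si-FIBP#2 (#2) on the x axis. Points are samples, horizontal bars are group means and vertical bars are 1 SD (n = 3), and ATF6 and PDIA4 are the 2 genes with all 6 depleted samples above all 3 Scramble samples.

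All samples of a group lay apart from all Scramble samples in 4 of 10 members with Si-FIBP#1 (ATF6, PDIA4 and CALR above, XBP1 below) and in 3 of 10 after Si-FIBP#2 (ATF6 and PDIA4 above, MANF below). Over all genes tested this held for 58.9% and 57.3%. The 6 depleted samples together lay apart from Scramble in 2 members, beside 42.9% of all genes. With both siRNAs averaged in the same fit, 4 of 10 members passed (ATF6 and PDIA4 higher, XBP1 and MANF lower), where 53% of all genes did.

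Among the sensors, ATF6 (ENSG00000118217, chr1:161766294-161964070, plus strand, in GENCODE release 29 for GRCh38) encodes the membrane-bound factor that enters the Golgi under stress. It was at 6.26, 6.47 and 6.35 FPKM in Scramble, at 9.37, 10.72 and 11.08 FPKM in Si-FIBP#1 and at 10.00, 12.23 and 10.16 FPKM in Si-FIBP#2. Every depleted sample was above every Scramble sample, and the lowest of them exceeded the highest Scramble sample by more than the SD of any group. The means were 6.36 ± 0.105, 10.4 ± 0.901 and 10.8 ± 1.24 FPKM (SD, n = 3), ratios of 1.63 and 1.70 to Scramble. On the log2(FPKM + 1) scale the change was 0.63 ± 0.093 (SE) with Si-FIBP#1 and 0.68 ± 0.093 for Si-FIBP#2, with limma adjusted p-values of 4.57e-04 and 2.93e-04. The difference between the siRNAs was 0.049, with a 95% interval of -0.16 to 0.26. All ATF6 signal was assigned to a single transcript, ENST00000367942 of 7470 nt. The change passed the test under all 18 alternative settings for both siRNAs, from 0.58 to 0.70 and from 0.59 to 0.75 on the log2 scale.

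Over the 9 samples, 3 genes followed ATF6 most closely by the root-mean-square difference of centred log2(FPKM + 1) values. They were TMBIM6 at 0.035, SERINC1 at 0.035 and PGM2L1 at 0.042. TMBIM6 encodes an ER membrane protein known as Bax inhibitor 1. Its mean was 310 FPKM in Scramble, 465 FPKM in Si-FIBP#1 and 494 FPKM in Si-FIBP#2. SERINC1 averaged 69.1, 112 and 113 FPKM, and PGM2L1 averaged 1.24, 2.55 and 2.59 FPKM in the same order. PGM2L1 was low in Scramble, where this scale understates changes. Over the alternatives its log2 change reached 0.98 with Si-FIBP#1 and 0.99 with Si-FIBP#2, beside 0.70 and 0.75 for ATF6.

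ERN1 (ENSG00000178607, chr17:64039142-64130819, minus strand) encodes IRE1α, a kinase and endoribonuclease. It was at 2.89, 3.25 and 3.29 FPKM in Scramble, at 3.37, 3.13 and 3.49 FPKM in Si-FIBP#1 and at 3.05, 2.68 and 3.02 FPKM in Si-FIBP#2. Both depleted groups overlapped Scramble, and all Si-FIBP#2 samples were below all Si-FIBP#1 samples. The log2 differences from Scramble were 0.064 (95% interval -0.15 to 0.28) and -0.081 (-0.29 to 0.13), with limma adjusted p-values of 0.608 and 0.510.

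EIF2AK3 (ENSG00000172071, chr2:88556741-88627576, minus strand) encodes PERK. Its gene sum was 4.02, 3.96 and 4.15 FPKM in Scramble, 3.46, 5.87 and 6.84 FPKM in Si-FIBP#1 and 4.26, 4.02 and 2.73 FPKM in Si-FIBP#2. Both depleted groups overlapped Scramble, and the SD rose from 0.0971 FPKM in Scramble to 1.74 FPKM in Si-FIBP#1. The log2 differences were 0.30 (-0.15 to 0.76) and -0.13 (-0.58 to 0.33), with limma adjusted p-values of 0.247 and 0.636.

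The EIF2AK3 sum joined models of very different length, and the sums over its long and short models went in opposite directions. The 4 transcripts over 1000 nt, which hold nearly all of its estimated fragments, summed to 4.02, 3.63 and 3.92 FPKM in Scramble, to 2.50, 2.98 and 3.07 FPKM in Si-FIBP#1 and to 2.18, 3.16 and 2.19 FPKM in Si-FIBP#2. All 6 depleted samples were below all 3 Scramble samples. The long models were not alike. ENST00000303236 of 4536 nt, named after its values were seen, fell from 2.03 to 0.64 and 0.56 FPKM on average. Its limma adjusted p over transcripts was 0.0289 and 0.0219, where 20.7% and 19.1% of all transcripts passed. ENST00000652736 of 4222 nt averaged 1.51, 2.10 and 1.66 FPKM with overlap between the groups. Its log2 differences of 0.36 and 0.12 did not pass. The values of such similar models are estimates of the quantification, and how it divided the reads was not tested. The 4 shorter transcripts summed to 0, 0.33 and 0.23 FPKM in Scramble, to 0.96, 2.89 and 3.77 FPKM in Si-FIBP#1 and to 2.08, 0.86 and 0.54 FPKM in Si-FIBP#2, all above Scramble. These short models were led by ENST00000470706 of 582 nt and rested on at most 21.03 estimated fragments in a sample, beside 183 to 354 for the long ones. The split at 1000 nt was chosen after the values were seen, so it carries no test. In a gene value weighted by transcript length less 300 nt, likewise chosen afterwards, EIF2AK3 changed by -0.31 with Si-FIBP#1 and by -0.48 after Si-FIBP#2 on the log2 scale, with limma adjusted p-values of 0.0347 and 0.0046. Over its alternatives the adjusted p of the gene was 0.0212 to 0.628 for Si-FIBP#1 and 0.0046 to 0.928 for Si-FIBP#2. Without Si-FIBP#1 replicate 1, the plain sum passed in the other direction, at 0.54.

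**Figure D2:**
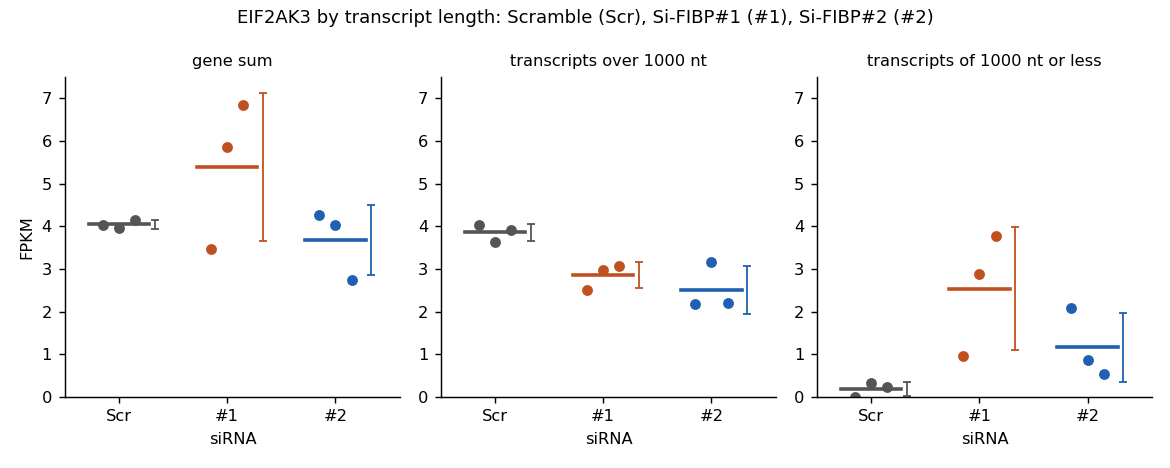
EIF2AK3 in FPKM (y axis) for the gene sum, the transcripts over 1000 nt and those of 1000 nt or less, with the siRNA groups on the x axis, points for samples, horizontal bars for means and vertical bars for 1 SD (n = 3). The long transcripts stand at 3.63 to 4.02 FPKM in Scramble and at 2.18 to 3.16 FPKM in depleted cells, while the short ones are at most 0.33 FPKM in Scramble and reach 3.77 FPKM in Si-FIBP#1.

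In that length-weighted value, 5 of 10 members passed with each siRNA, beside 56.9% of all genes with Si-FIBP#1 and 57.2% after Si-FIBP#2. The added members were CALR (higher) and EIF2AK3 (lower) with Si-FIBP#1, and EIF2AK3 and HERPUD1 (both lower) after Si-FIBP#2.

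XBP1 (ENSG00000100219, chr22:28794555-28800597, minus strand) encodes the factor downstream of IRE1. The stretch that IRE1 removes is 26 nt long, and it decides which protein the mRNA encodes, so both forms are shown. The lines below give the transcript 5′ to 3′ as DNA letters from GENCODE release 29, with capitals for the removed stretch in the uncut form and for the 3 bases on each side of the join in the other.
uncut XBP1: agCACTCAGACTACGTGCACCTCTGCAGca
XBP1 without the stretch: ctgctgagtccgCAGCAGgtgcaggcccag
The stretch lies at positions 570 to 595 of ENST00000216037 and at chr22:28796124-28796149 on the minus strand, in the coding sequence. Its placement can be shifted by up to 4 bases upstream or 2 downstream with the same product.

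XBP1 was at 21.95, 22.38 and 21.48 FPKM in Scramble, at 16.12, 17.09 and 18.65 FPKM in Si-FIBP#1 and at 17.76, 22.37 and 19.78 FPKM in Si-FIBP#2. All Si-FIBP#1 samples were below Scramble, while Si-FIBP#2 replicate 2 lay within the Scramble range. The means were 21.9 ± 0.450, 17.3 ± 1.28 and 19.97 ± 2.31 FPKM (SD, n = 3). The gene fell by 0.33 ± 0.087 (SE) on the log2 scale with Si-FIBP#1 (limma adjusted p = 0.0112) and passed under all 18 alternatives, from -0.38 to -0.28. With Si-FIBP#2 the difference was -0.13 (95% interval -0.33 to 0.059, adjusted p = 0.226). It passed at -0.22 without Si-FIBP#2 replicate 2 and at -0.22 with median-ratio scaling, and it was -0.058 without Si-FIBP#2 replicate 1. Over all alternatives its adjusted p ranged from 0.0473 to 0.606. The difference between the siRNAs was 0.19 (-0.00021 to 0.39, adjusted p = 0.168).

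By transcript, XBP1 was carried by ENST00000216037 of 1850 nt, an uncut model. It was at 20.57, 21.49 and 20.02 FPKM in Scramble, at 15.73, 14.60 and 16.16 FPKM in Si-FIBP#1 and at 16.25, 19.94 and 18.59 FPKM in Si-FIBP#2, so that both depleted groups lay below Scramble. In a fit over 47662 transcripts it fell by 0.40 on the log2 scale with Si-FIBP#1 (limma adjusted p = 0.0131, where 20.7% of transcripts passed) and differed by -0.18 with Si-FIBP#2 (adjusted p = 0.196, where 19.1% passed). Its share of the XBP1 signal was 94.3 ± 1.503% in Scramble, 89.9 ± 6.69% in Si-FIBP#1 and 91.5 ± 2.42% in Si-FIBP#2 (SD, n = 3). The shares overlapped between Scramble and each depleted group, and two-sided exact permutation tests of the difference gave p = 0.4 and p = 0.3, where 0.1 is the smallest possible, and p = 0.262 for all 6 depleted samples.

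Of the 7 XBP1 transcripts, 2 hold the join that is left when the stretch is removed. ENST00000344347 was listed at 0 in all samples. ENST00000611155 was at 0.53, 0 and 0 FPKM in Scramble, at 0, 1.21 and 0.97 FPKM in Si-FIBP#1 and at 0.31, 0.42 and 0 FPKM in Si-FIBP#2, at most 7.08% of the gene. Each group held at least 1 sample at 0, so the groups overlapped. Reads outside the short stretch fit both forms, so these shares are estimates of the quantification. The other 3 transcripts above 0 stayed below 1 FPKM in all samples. They also hold the stretch, so the share of ENST00000216037 is not the whole uncut share. The 2 models without the stretch held 0.80 ± 1.39% of the gene in Scramble, 4.09 ± 3.67% in Si-FIBP#1 and 1.21 ± 1.05% in Si-FIBP#2 (SD, n = 3).

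Among the ERAD genes, HERPUD1 (ENSG00000051108, chr16:56932048-56944863, plus strand) encodes HERP, a membrane protein of the degradation complex. It was at 17.78, 18.34 and 17.03 FPKM in Scramble, at 16.58, 21.22 and 21.50 FPKM in Si-FIBP#1 and at 14.87, 20.43 and 15.60 FPKM in Si-FIBP#2, with overlap between all groups. The log2 differences were 0.14 (95% interval -0.14 to 0.43) and -0.071 (-0.36 to 0.21), with limma adjusted p-values of 0.388 and 0.674. With Si-FIBP#1, HERPUD1 ranged from 0.060 with the length-weighted value to 0.26 without Si-FIBP#1 replicate 1, and passed in no alternative. Its short transcripts also averaged more in depleted cells, at 1.61, 4.15 and 3.42 FPKM in the 3 groups, and the length-weighted change with Si-FIBP#2 was -0.19 (adjusted p = 0.0432, in a range from 0.0432 to 0.955 over the alternatives).

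SEL1L (ENSG00000071537, chr14:81471549-81533861, minus strand) encodes the adaptor of the ERAD ubiquitin ligase HRD1. It was at 19.02, 19.41 and 18.66 FPKM in Scramble, at 19.94, 18.44 and 19.13 FPKM in Si-FIBP#1 and at 20, 21.37 and 16.34 FPKM in Si-FIBP#2. Both depleted groups enclosed the Scramble range. The log2 differences were 0.0096 (-0.19 to 0.21) and 0.0067 (-0.20 to 0.21), the nearest to 0 of the 10 members.

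Among the folding proteins, PDIA4 (ENSG00000155660, chr7:149003062-149028641, minus strand) encodes the protein disulfide isomerase ERp72. It was at 60.69, 60.29 and 59.38 FPKM in Scramble, at 76.92, 82.34 and 81.98 FPKM in Si-FIBP#1 and at 65.20, 76.15 and 66.74 FPKM in Si-FIBP#2. All 6 depleted samples were above Scramble, and all Si-FIBP#2 samples were below all Si-FIBP#1 samples. The log2 change was 0.41 ± 0.063 (SE) with Si-FIBP#1 and 0.20 ± 0.063 for Si-FIBP#2, with limma adjusted p-values of 5.44e-04 and 0.0251. With Si-FIBP#2 the call was lost under median-ratio scaling, at 0.11, and without Scramble replicate 2 or 3, at 0.20 and 0.19, and its adjusted p ranged from 0.0164 to 0.141. The Si-FIBP#2 samples were lower than the Si-FIBP#1 samples by a log2 difference of -0.21 (adjusted p = 0.0490). PDIA4 was the only 1 of 10 members to pass between the siRNAs, where 15.4% of all genes did, and that call was lost in 13 of 18 alternatives. At an unadjusted p below 0.05, PDIA4 and MANF passed between the siRNAs, 2 of 10 members beside 29.9% of all genes.

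CALR (ENSG00000179218, chr19:12938578-12944489, plus strand) encodes calreticulin, a lectin chaperone for glycoproteins. It was at 300.40, 296.76 and 298.99 FPKM in Scramble, at 329.06, 358.49 and 357.51 FPKM in Si-FIBP#1 and at 301.38, 374.08 and 294.79 FPKM in Si-FIBP#2. All Si-FIBP#1 samples were above Scramble, but their log2 difference of 0.22 (95% interval 0.036 to 0.40) did not pass by limma (adjusted p = 0.0505). It passed in 7 of 18 alternatives, with an adjusted p from 0.00177 to 0.133. With Si-FIBP#2 the difference was 0.11 (-0.079 to 0.29), and without its replicate 2 it was -0.0031.

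SDF2L1 (ENSG00000128228, chr22:21642261-21644298, plus strand) encodes a soluble partner of the ER chaperone machinery. It was at 42.79, 44.04 and 44.14 FPKM in Scramble, at 44.70, 50.53 and 39.22 FPKM in Si-FIBP#1 and at 43.73, 61.73 and 49.83 FPKM in Si-FIBP#2, and the groups overlapped. The log2 differences were 0.030 (-0.24 to 0.30) and 0.23 (-0.046 to 0.50), with limma adjusted p-values of 0.860 and 0.151. Without Si-FIBP#2 replicate 1 the second passed, at 0.34, and without Si-FIBP#2 replicate 2 it was 0.095. Over the alternatives its adjusted p ranged from 0.0398 to 0.465.

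MANF (ENSG00000145050, chr3:51385047-51389397, plus strand) encodes a secreted neurotrophic factor that resides in the ER lumen and is a known target of the response. It was at 60.88, 62.66 and 64.66 FPKM in Scramble, at 52.50, 55.67 and 61.08 FPKM in Si-FIBP#1 and at 45.19, 56.09 and 45.45 FPKM in Si-FIBP#2. All Si-FIBP#2 samples were below Scramble, while Si-FIBP#1 replicate 3 lay within the Scramble range. MANF fell by 0.36 ± 0.088 (SE) on the log2 scale with Si-FIBP#2 (limma adjusted p = 0.0077) and passed under all 18 alternatives, from -0.46 to -0.31. With Si-FIBP#1 the difference was -0.15 (-0.35 to 0.045, adjusted p = 0.181), and that between the siRNAs was -0.21 (-0.40 to -0.0088, adjusted p = 0.151).

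**Figure D3:**
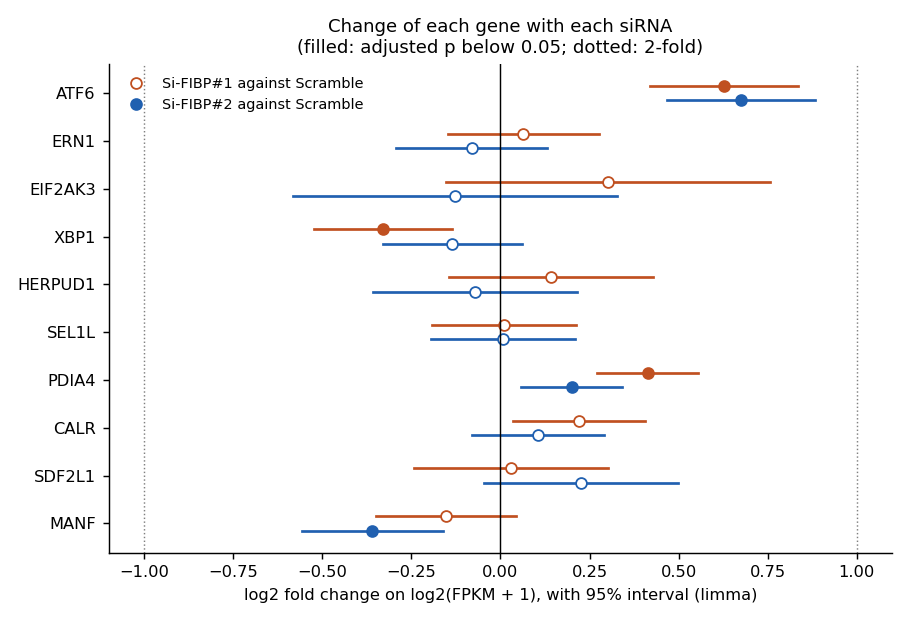
Log2 fold change on log2(FPKM + 1) of each of the 10 genes (y axis) with Si-FIBP#1 and Si-FIBP#2 against Scramble, with 95% intervals from limma, filled points for an adjusted p below 0.05 and dotted lines at 2-fold. ATF6 stands furthest from 0, at 0.63 and 0.68, and no gene reaches 2-fold.

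Within the depleted groups, the same sample was often the highest or the lowest for many members. In Scramble each sample was the highest in 2 to 4 of 10 members and the lowest in 2 to 4, beside 27.4% to 44.2% and 29.2% to 37.4% of all genes. Si-FIBP#2 replicate 2 was the highest of its group in 8 of 10 members and in 44.4% of all genes, Si-FIBP#1 replicate 1 was the lowest in 7 of 10 and in 37.3%, and Si-FIBP#2 replicate 1 was the lowest in 6 of 10 and in 36.1%. Without Si-FIBP#2 replicate 2, 4 of 10 members passed with Si-FIBP#2 (XBP1 was added), beside 46.1% of all genes, and without Si-FIBP#1 replicate 1, 5 passed with Si-FIBP#1 (CALR and EIF2AK3 were added), beside 42.9%. A role of these samples in the results was not tested. In every member but ERN1 the SD was larger in both depleted groups than in Scramble. For CALR it was 1.84 FPKM in Scramble, 16.7 in Si-FIBP#1 and 44.0 in Si-FIBP#2, and for ERN1 0.220, 0.183 and 0.206 FPKM. The fit shares its estimate of the spread across groups, so its p-values take these spreads as equal. This was not counted over all genes.

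Promoter elements of the response were found for 4 of the 10 members. The ER stress response element (ERSE, CCAAT and CCACG with 9 bases of any kind between them) pairs a CCAAT box, bound by NF-Y, with a site for ATF6, and ERSE-II (ATTGG and CCACG with 1 base between them) holds the same parts closer together. Both were searched on both strands in 35116 RefSeq promoters (GRCh38.p14) of 300 bases, from 250 before to 50 after the start site. All 10 members matched, with 12 promoters. ERSE was found for XBP1 and CALR and in 27 promoters in all (0.0769%), ERSE-II was found for HERPUD1 and SDF2L1 and in 19 in all (0.0541%), and the unfolded protein response element TGACGTGG was found for 0 members and in 256 promoters (0.729%). The matches are shown because ERSE and ERSE-II are the elements through which ATF6 is known to act, each read along the strand of the gene with the element in capitals.
XBP1: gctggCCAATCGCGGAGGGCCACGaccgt
CALR: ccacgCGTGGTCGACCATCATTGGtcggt
HERPUD1: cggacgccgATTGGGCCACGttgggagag
SDF2L1: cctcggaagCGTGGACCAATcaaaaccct
The printed windows lie at chr22:28800598-28800626 on the minus strand for XBP1, and on the plus strand at chr19:12938379-12938407 for CALR, chr16:56932016-56932044 for HERPUD1 and chr22:21642105-21642133 for SDF2L1. The CALR and SDF2L1 elements are on the opposite strand, so their letters are the reverse complement of the motif. The elements begin 52, 225, 117 and 188 bases before the RefSeq start site, respectively. Of these 4 genes, XBP1 fell with Si-FIBP#1 and the rest did not pass with either siRNA, while ATF6, PDIA4 and MANF held none of these letters in the windows searched. Outside the members, the chaperone genes HSPA5 and HSP90B1 also held ERSE, and neither passed with either siRNA. No such result is given for the folding genes that rose, and the remaining promoters with ERSE were not followed to their genes. How genes with the element changed as a set was not tested. Only exact letters were counted, so a promoter without a match may still hold a working element. Activity of the elements was not tested.

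Around the members, 5 lists of 89 other genes of the ER were examined, of which 88 were tested. The lists were chosen with earlier results of these data known, so their counts are descriptive. Together, 38 passed as higher and 15 as lower with Si-FIBP#1, and 33 and 14 after Si-FIBP#2. Over all genes, 27.8% were higher and 19.9% lower after Si-FIBP#1, while Si-FIBP#2 gave 31.1% and 17.7%. The median log2 fold change of the lists was 0.17 and 0.12, beside 0.073 and 0.11 over all genes.

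The 18 ER folding genes moved mostly upward. With Si-FIBP#1, 11 were higher and 0 lower, and with Si-FIBP#2, 12 were higher and 0 lower by limma, counts that were 11, 14 and again 0 lower at an unadjusted p below 0.05, where 32.2% and 35.2% of all genes were higher and 22.3% and 20% lower. Their median was 0.39 and 0.37. The list leaves out the folding members PDIA4, CALR, SDF2L1 and MANF. Of these, PDIA4 passed as higher with both siRNAs and MANF as lower with Si-FIBP#2, while CALR and SDF2L1 passed with neither. DNAJB9, an ER co-chaperone, averaged 6.57 ± 0.380 FPKM in Scramble, 13.9 ± 1.42 in Si-FIBP#1 and 15.8 ± 2.35 in Si-FIBP#2 (SD, n = 3), changes of 0.97 and 1.14. SIL1, the nucleotide exchange factor of BiP, rose from 14.7 ± 0.975 to 37.8 ± 1.75 and 32.1 ± 9.21 FPKM, by 1.31 and 1.04. HSPA5 and HSP90B1, the genes of the abundant chaperones BiP and GRP94, did not pass. HSPA5 was at 126.74, 135.21 and 128.91 FPKM in Scramble, at 131.88, 149.19 and 153.69 FPKM in Si-FIBP#1 and at 134.97, 160.90 and 136.24 FPKM in Si-FIBP#2. Its log2 differences of 0.15 and 0.14 (limma adjusted p = 0.147 and 0.173) became -0.081 and -0.028 with annotated transcripts only. HSP90B1 differed by -0.031 and 0.060 (adjusted p = 0.807 and 0.626).

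**Figure D4:**
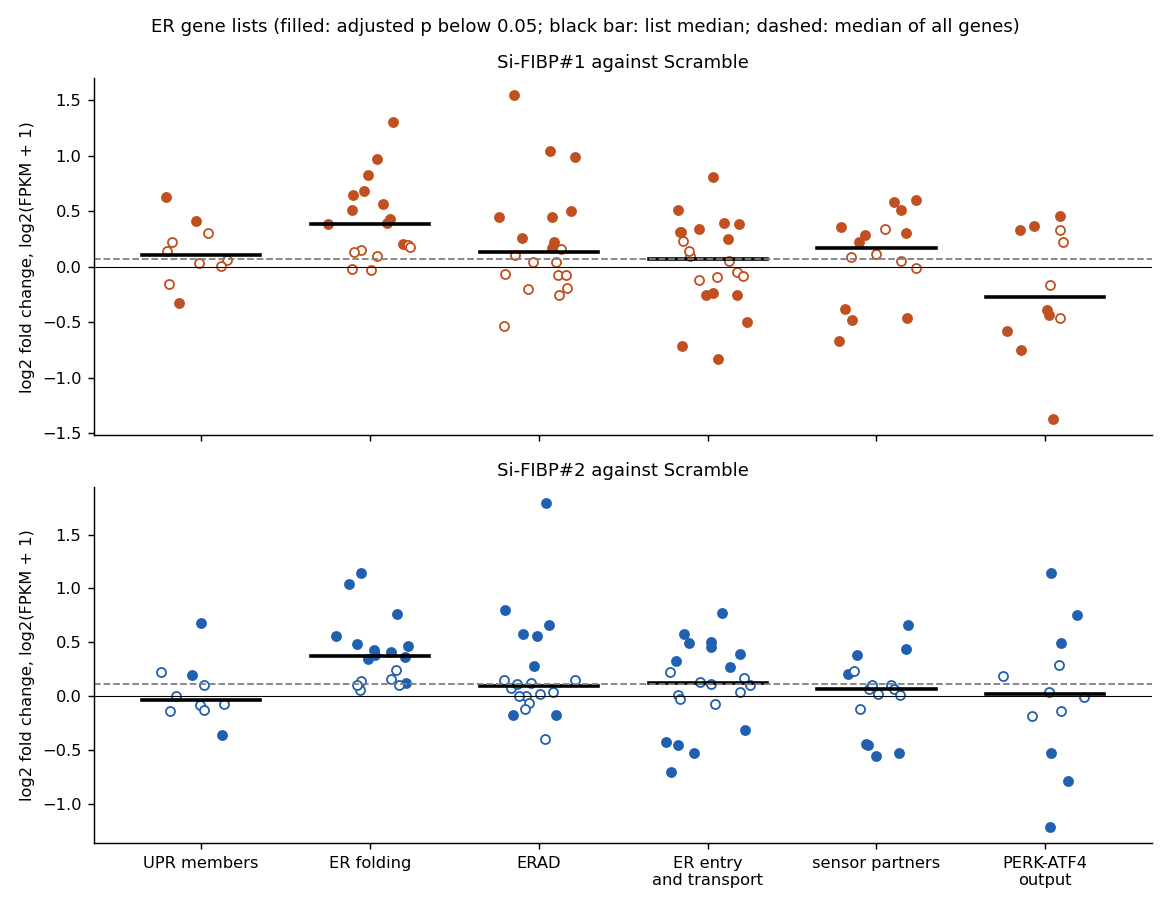
Log2 fold change on log2(FPKM + 1) (y axis) of the 10 members and of the genes of 5 ER lists (x axis) with Si-FIBP#1 (top) and Si-FIBP#2 (bottom), with filled points for an adjusted p below 0.05, black bars for list medians and dashed lines for the median of all genes. The folding list has medians of 0.39 and 0.37, above the dashed lines at 0.073 and 0.11, and the members have medians of 0.10 and -0.032. The lists were chosen with earlier results of these data known.

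Of 20 ERAD genes, 9 were higher and 0 lower after Si-FIBP#1, and 6 were higher and 2 lower after Si-FIBP#2. These are 45% and 0%, and 30% and 10%, beside 27.8% and 19.9%, and 31.1% and 17.7%, of all genes. At an unadjusted p below 0.05, 10 were higher and 1 lower after Si-FIBP#1, beside 32.2% and 22.3% of all genes. EDEM3, which trims mannose from misfolded glycoproteins, rose from 8.38 ± 0.278 FPKM to 26.5 ± 3.02 and 31.5 ± 0.977 FPKM, by 1.55 and 1.79. OS9, a lectin that hands such proteins to SEL1L, rose from 81.0 ± 1.13 to 167 ± 4.68 and 142 ± 12.8 FPKM, by 1.04 and 0.80. The medians of the list were 0.13 and 0.093, near those of all genes.

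Of 22 genes of protein entry into the ER and transport from it, 8 were higher and 6 lower after Si-FIBP#1, and 8 and 5 after Si-FIBP#2. These are 36.4% and 27.3%, and 36.4% and 22.7%, beside 27.8% and 19.9%, and 31.1% and 17.7%, of all genes. SSR4, a subunit of the translocon-associated complex, rose from 126 ± 6.13 FPKM to 222 ± 4.84 and 217 ± 2.57 FPKM. KDELR3, a receptor that retrieves luminal proteins, fell from 13.2 ± 0.886 to 6.98 ± 0.731 and 7.75 ± 1.54 FPKM.

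Of 16 tested partners and regulators of the sensors, 7 were higher and 4 lower with Si-FIBP#1, and 4 and 4 after Si-FIBP#2. These are 43.8% and 25%, and 25% and 25%, beside 27.8% and 19.9%, and 31.1% and 17.7%, of all genes. TMBIM6 rose by 0.58 and 0.67, and TRAF2, an adaptor recruited by IRE1, fell by 0.67 and 0.45 on the log2 scale. The other genes that fell, with each siRNA, were NFYA, NFYB and NFYC, the 3 subunits of NF-Y, named after their values were seen. They fell by 0.48, 0.46 and 0.38 with Si-FIBP#1 and by 0.44, 0.52 and 0.55 after Si-FIBP#2, and the call of NFYB with Si-FIBP#1 was lost without Scramble replicate 3 (-0.37, adjusted p = 0.0507). The 4 that rose with Si-FIBP#2 were TMBIM6, CREB3, EIF2AK4 and MBTPS1, also named after their values were seen. Of the proteases that cleave ATF6, MBTPS1 (site 1) rose by 0.60 with Si-FIBP#1 and by 0.44 with Si-FIBP#2, and MBTPS2 (site 2), likewise named afterwards, rose by 0.51 with Si-FIBP#1 and differed by 0.23 with Si-FIBP#2 (limma adjusted p = 0.0180 and 0.223).

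Of 12 genes of the PERK and ATF4 output, 3 were higher and 5 lower after Si-FIBP#1, and 3 and 3 after Si-FIBP#2, with medians of -0.28 and 0.019. These are 25% and 41.7%, and 25% and 25%, beside 27.8% and 19.9%, and 31.1% and 17.7%, of all genes. ASNS, which makes asparagine, fell from 87.5 ± 4.44 to 33.2 ± 1.45 and 37.1 ± 2.37 FPKM, by 1.37 and 1.22 on the log2 scale. ATF4 was at 124.89, 128.72 and 129.73 FPKM in Scramble, at 76.78, 72.62 and 77.48 FPKM in Si-FIBP#1 and at 91.31, 83.44 and 91.02 FPKM in Si-FIBP#2. All depleted samples were below Scramble, as in 16.5% of all genes tested. ATF4 fell by 0.75 and 0.52 on the log2 scale and passed by limma under all 18 alternatives with both siRNAs. DDIT3, which encodes CHOP, fell by 0.43 with Si-FIBP#1 (limma adjusted p = 5.04e-04) and stood at 17.6 FPKM on average both in Scramble and in Si-FIBP#2. VLDLR, a lipoprotein receptor, rose from 6.19 ± 0.317 to 8.06 ± 0.318 and 14.9 ± 1.00 FPKM, by 0.33 and 1.15.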

How the data were processed

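RNA-seq of poly(A)-selected RNA from 9 H1299 samples was used. The authors deposited 1 table per sample with a value per transcript, rounded to 2 decimals. The authors made the FPKM values, a unit inferred from the numbers, from reads aligned with HISAT2 and quantified with StringTie, which the submitters' processing notes name without a version. The genome build and annotation are not given in the sources used here, and StringTie's assembled transcripts took 5.45% to 5.84% of the signal.

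Transcript FPKM were summed per gene identifier. The 14985 genes reaching 1 FPKM in 3 or more samples were fitted on log2(FPKM + 1) with limma 3.58.1 in R 4.3.3, with a mean-variance trend, over all 9 samples, with Benjamini-Hochberg adjustment over all genes. Fold changes on this scale understate those of low genes, and the 2-fold threshold was applied on it. As the values are not counts, no count test was run. Samples were grouped by their titles. Depth was estimated from 8100 single-transcript genes by the step 1 fragment makes, where the mean cosine of the low values was 0.751 to 0.815 (1 if all are whole). FPKM carry no counting interval.

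The members, the lists and the tests were chosen with earlier results of these data known. Named besides the members were, in each list, the genes past the test and over 2-fold with either siRNA, otherwise the 2 with the largest change among those past it with both, then HSPA5, HSP90B1, DNAJB9, ATF4 and DDIT3, and the 3 genes most like the most changed member. NFYA, NFYB, NFYC, CREB3, EIF2AK4, MBTPS1 and MBTPS2 fall outside this rule and were named after their values were seen. Positions and XBP1 sequences are from GENCODE release 29, and 54 of 68 annotated member transcripts have the deposited length there. Promoters are from RefSeq. The deviations of same-numbered samples correlated over 0.1 in 1 of 9 pairs, so numbers were not taken as pairs. Alternatives were TPM or median-ratio scaling, a pseudocount of 0.1, no filter or 5 FPKM, annotated transcripts only, the groups compared only, a replicate block, a length-weighted value, and leaving out each sample. The fit was tested on simulated data. Other steps used Python 3.11.15, pandas 2.3.3, scipy 1.17.1 and matplotlib 3.10.9.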

Additional observations from a re-analysis of the deposited data

Results flagged for a closer look

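The effect of Si-FIBP#2 differed from that of Si-FIBP#1 in 1 member and in 8 of the other genes examined here by name, by limma in the fit over all genes, where 15.4% of genes differed. Those genes were named for large changes, as markers or, for ATF4 and DDIT3, as known genes of the response. Their count is not a share of a fixed list, so it cannot be set beside the 15.4%. Of the 88 tested genes of the 5 ER lists, 10 (11.4%) differed, 5 in each direction. PDIA4 differed by -0.21 on the log2 scale (adjusted p = 0.0490). OS9 differed by -0.24 (adjusted p = 0.0309), MAN1B1 by -0.30 (adjusted p = 0.0245) and HSP90AA1 by -0.27 (adjusted p = 0.00488). Higher with Si-FIBP#2 than with Si-FIBP#1 were ATF4 by 0.22 (adjusted p = 0.0176), DDIT3 by 0.43 (adjusted p = 0.00312) and VLDLR by 0.81 (adjusted p = 3.30e-04). Of the cell type markers, FN1 differed by -0.61 (adjusted p = 0.0201) and CD68 by 0.63 (adjusted p = 0.00284). The calls were lost in 13 of 18 alternative settings for PDIA4, in 8 for OS9, 6 for MAN1B1, 5 for ATF4 and 4 for FN1, and in 0 for HSP90AA1, DDIT3, VLDLR and CD68. With 1 sample left out, the calls of these 5 genes were lost without Si-FIBP#2 replicate 1 or 3. They were also lost without Si-FIBP#1 replicate 1 or 2 for OS9, replicate 1 for FN1, replicate 2 for ATF4 and any of the 3 for MAN1B1 and PDIA4, and without Scramble replicate 2 for OS9 and any Scramble replicate for PDIA4. The adjusted p was then 0.0506 to 0.153. The difference of DDIT3 held all 3 Si-FIBP#2 samples, at 16.74, 18.52 and 17.51 FPKM, above the Si-FIBP#1 samples, at 12.33, 12.44 and 13.66 FPKM.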

How the results depend on the processing

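Of 2004 alternative values for 112 gene results, 1897 kept their direction and their side of the threshold, 54 were no longer past it, 23 were newly past it and 30 changed sign, none of which was past it to begin with. ATF6 with both siRNAs, XBP1 and PDIA4 with Si-FIBP#1 and MANF with Si-FIBP#2 passed in all 18 settings. The counts over the 5 lists stayed within 1.5 times. The share of XBP1 in its leading transcript differed by -4.43 and -2.77 percentage points. Among the leading 2 coding transcripts, ENST00000216037 and ENST00000405219, the differences were -0.24 and -2.21. There the Si-FIBP#2 difference had the smallest exact permutation p possible (0.1). Both transcripts hold the stretch, so this does not compare uncut with cut XBP1, and ENST00000405219 stayed below 1 FPKM. With 1 sample left out, the share of the whole gene differed by -8.27 to -2.20 for Si-FIBP#1 (without its replicates 1 and 2, and -2.81 without 3). For Si-FIBP#2 it differed by -4.00 to -1.57 (without its replicates 3 and 2).

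With the length-weighted value, added after seeing the data, 5 members passed with each siRNA and 2 between the siRNAs, where shorter transcripts weigh less by construction. Leaving out 1 sample gave 3 to 5 members with Si-FIBP#1 (5 without its replicate 1), 2 to 4 with Si-FIBP#2 (2 without Scramble replicate 2 or 3) and 0 to 3 between the siRNAs (3 without Si-FIBP#2 replicate 2, when CALR and MANF were added), beside 40.5% to 51.4%, 41.7% to 48.5% and 8.55% to 19.1% of all genes. Between the siRNAs, 0 members passed with TPM scaling, a pseudocount of 0.1, no filter, annotated transcripts only or only the groups compared, where 4.89% to 16.3% of all genes did, against 1 (2 at an unadjusted p below 0.05, beside 29.9% of all genes). The cause was not tested.

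Signs changed as follows, on the log2 scale. With TPM scaling SDF2L1 and SEL1L were at -0.015 and -0.035 with Si-FIBP#1, and SEL1L at 0.040 between the siRNAs. With median-ratio scaling they were at -0.022 and -0.041, and SEL1L and HSP90B1 at -0.080 and -0.031 with Si-FIBP#2. HSPA5 with annotated transcripts was at -0.081 and -0.028. With length weighting EIF2AK3, HSP90B1 and FN1 were at -0.31, 0.053 and -0.14 with Si-FIBP#1. Leaving out 1 sample gave, with Si-FIBP#1, SDF2L1 from -0.059 to 0.12, SEL1L from -0.018 to 0.036, HSP90B1 from -0.081 to 0.041 and FN1 from -0.027 to 0.21. For Si-FIBP#2 it gave EIF2AK3 from -0.22 to 0.027, HERPUD1 from -0.20 to 0.012, CALR from -0.0031 to 0.17, SEL1L from -0.070 to 0.11, HSP90B1 from -0.049 to 0.14 and DDIT3 from -0.040 to 0.029. Between the siRNAs it gave ATF6 from -0.037 to 0.096 and SEL1L from -0.079 to 0.10.

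The replicate block gave 4, 3 and 1 members, where CALR passed with Si-FIBP#1 (adjusted p = 0.0429), and 7081 and 7287 genes against 7146 and 7309. Same-numbered samples correlated by -0.057 to 0.103, 7 of 9 above 0, and in 10 of 18 comparisons of a sample with another group (6 by chance) its own number correlated best. Under a filter of 5 FPKM, ERN1 and EIF2AK3 were not tested.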

Other observations

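In the pathway annotation of the deposited tables, protein processing in the ER covers 519 gene identifiers, 250 of them tested, and includes non-coding genes. By limma, 86 of these were higher and 44 lower after Si-FIBP#1, while Si-FIBP#2 gave 88 and 44. These are 34.4% and 17.6%, and 35.2% and 17.6%, of the genes tested, beside 27.8% and 19.9%, and 31.1% and 17.7%, over all genes. Outside the lists above, the cytosolic chaperone gene HSP90AA1 fell from 1342 ± 13.4 FPKM to 741 ± 17.4 and 614 ± 36.0 FPKM (SD, n = 3). RAD23B and UBQLN4, which encode shuttle proteins that bring ubiquitinated proteins to the proteasome, fell from 113 ± 4.21 to 47.5 ± 4.62 and 51.9 ± 16.5 FPKM, and from 29.6 ± 1.13 to 13.3 ± 0.781 and 11.8 ± 1.48 FPKM. MAN1B1, an ER mannosidase, rose from 37.2 ± 1.67 to 80.4 ± 1.02 and 65.3 ± 7.12 FPKM, and SEC31B, a coat protein of ER export, rose from 2.56 ± 0.677 to 6.16 ± 0.554 and 6.67 ± 1.76 FPKM. The non-coding GABPB1-AS1 and KDM7A-DT also rose, each over 2-fold with at least 1 siRNA, by 1.20 and 0.94 and by 1.05 and 1.26 on the log2 scale. Counting by strand is not stated, so reads of GABPB1-AS1 and of its antisense partner cannot be told apart. TCF24 rose by 0.86 and 1.26, the former no longer past the test with annotated transcripts only (0.61, limma adjusted p = 0.0552). KDM7A-DT averaged 0.79 FPKM in Scramble, 2.70 in Si-FIBP#1 and 3.31 in Si-FIBP#2, and TCF24 averaged 0.73, 2.18 and 3.21 FPKM. Both met the filter of 1 FPKM in 3 samples only through depleted samples, so a rise was favoured by that filter. AC122685.1 rose by 1.11 with Si-FIBP#2. With Si-FIBP#1 it differed by 0.53, which did not pass by limma (adjusted p = 0.106). That difference passed with the replicate block (adjusted p = 0.0392) and, at 0.86, without Si-FIBP#1 replicate 1 (adjusted p = 0.00314).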
